A study of Mus musculus with 6 samples.

Results

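The 35 genes described here handle proteins that enter the endoplasmic reticulum (ER), and they were taken as a fixed list of symbols from the 56941 genes of the count table. They comprise 11 genes of protein folding, 6 of disulfide bond formation, 9 of ER-associated degradation (ERAD), 6 of the translocon and 3 sensors or effectors of the unfolded protein response (UPR). All 35 were found by symbol, and all 35 were among the 13299 genes with enough counts to be tested. RNA sequencing was performed on CD8+ T cells from the spleen of B6 mice, in 3 vehicle control and 3 S1P-treated samples. Every culture was activated for 3 days with plate-bound anti-CD3 and anti-CD28 and with IL-2 at 100 U/ml, and either vehicle or S1P (sphingosine 1-phosphate) at 5 µM was added 24 h after activation. The comparison asks what exogenous S1P changes in the transcripts of activated CD8+ T cells. The labels call the samples biological replicates and do not say whether each came from its own mouse, so the p-values measure the spread between these samples. The labels name purified naive CD8+ T cells as the starting cells, the methods of the study allow purified naive T cells or total splenocytes, and the ages the methods state are for mice of the tumour experiments and are not tied to these cultures.

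Secreted and membrane proteins, among them cytokines, granzymes and surface receptors of an activated T cell, are threaded into the ER through the translocon, folded by chaperones and joined by disulfide bonds. Proteins that fail to fold are drawn back into the cytosol and degraded, which is the work of ERAD. When unfolded proteins build up, the membrane sensors IRE1, ATF6 and PERK start the UPR: IRE1 splices the Xbp1 mRNA, the cleaved ATF6 enters the nucleus, and both factors switch on genes of folding and ERAD, while PERK slows translation and leads to ATF4 and CHOP.

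Total counts ranged from 13636095 to 17089831 in vehicle and from 12048880 to 17384084 in S1P samples, and counting error covers only a part of the spread given below. S1P replicate 2 stood apart from the other libraries: 7.80% of its counts were mitochondrial against 4.10% to 4.93% in the other 5, and its chi-square per gene against the other S1P samples was 18.4 and 31.3 where the other replicate pairs of either group had 3.81 to 5.98. It was the farthest of the S1P samples from their mean in 21 of the 35 genes and in 47.0% of all tested genes. All 3 S1P libraries held more genes with counts, at 24153 to 27224, than any vehicle library, at 22566 to 23288. S1P replicate 2 held the most such genes, although its total count was the lowest. Transcripts of the labelled cell type were present, with 57.0 to 68.9 CPM per kilobase of exon for Cd8a in vehicle. Transcripts of Cd4, at 41.4 to 49.5, and of the B cell gene Ms4a1, at 29.9 to 37.1, were also present.

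After S1P, some of the 35 genes were lower, among them Sdf2l1, Hyou1, Syvn1 and Xbp1, and fewer were higher, among them Dnajb9, P4hb and Herpud1, all by modest amounts: no gene of the list changed by as much as 1 on the log2 scale with an adjusted p of at most 0.05. A gene is said to have risen or fallen where the edgeR adjusted p was at most 0.05 and the log2 fold change at least 0.3 in size. By this rule 4 genes rose (Dnajb9, P4hb, Herpud1 and Ern1) and 7 fell (Sdf2l1, Hyou1, Syvn1, Dnajb11, Xbp1, Ssr2 and Creld2). These are 31.4% of the 35 genes beside 23.1% of all tested genes, of which 12.7% rose and 10.4% fell. A further 6 genes met the p criterion alone (Dnajc3, Pdia3, Pdia6, Sel1l, Sec61b and Ssr3), and in the remaining 18 the adjusted p was above 0.05, Derl3 among them with a log2 fold change of -0.80. The median log2 fold change was -0.11 over the 35 genes and 0.01 over all tested genes, with 22 of the 35 below zero and 13 above. In 23 of the 35 genes (65.7%) the normalized counts of the 3 S1P samples did not overlap those of the 3 vehicle samples, 16 of them lower and 7 higher, whereas 45.6% of all tested genes did not overlap. The 35 genes also had less spread, with a median standard error of 0.079 beside 0.113 over all tested genes. The part of this in the higher shares was not tested. Without S1P replicate 2 the counts were the same, 4 higher and 7 lower, but the names differed: Calr and Pdia3 entered the lower genes and Sel1l the higher ones, while Xbp1, Ssr2 and Ern1 left. By class, 6 folding genes passed without that sample (5 with it), 2 disulfide genes (1 with it), 3 ERAD genes (2 with it), 0 translocon genes (1 with it) and 0 UPR genes (2 with it), and over all tested genes 1588 rose and 1252 fell (1687 and 1384 with it). The number of risen genes rested on single libraries: it was 0 without vehicle replicate 3, 1 without S1P replicate 1 and 2 without vehicle replicate 2, whereas the number of fallen genes stayed between 7 and 9 whichever library was left out.

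**Figure D1:**
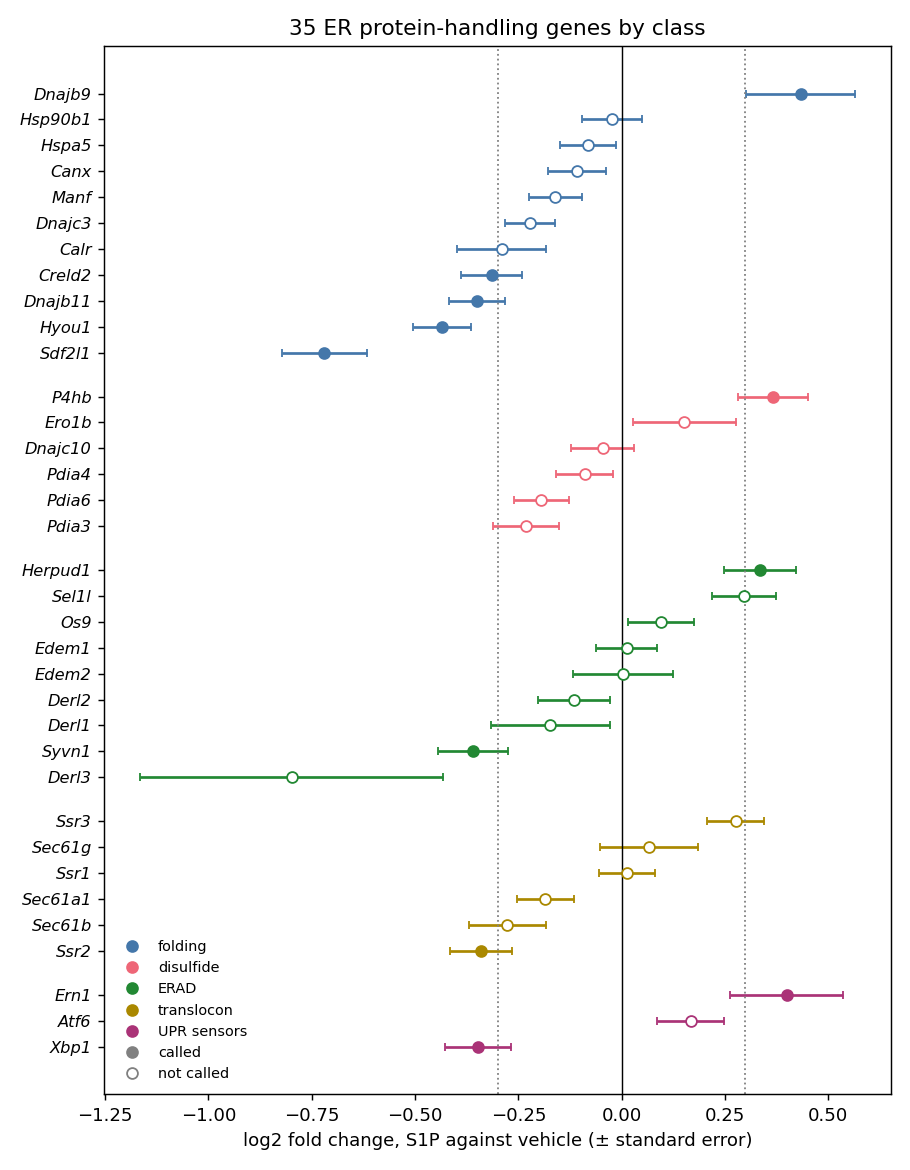
Log2 fold change of S1P against vehicle for each of the 35 genes, with bars of 1 standard error and genes grouped by class. Filled points passed an adjusted p of 0.05 and a log2 change of 0.3 (dotted lines); the folding genes lie mostly left of zero, from -0.72 (Sdf2l1) to 0.43 (Dnajb9).

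The sum of the normalized counts of the 35 genes was 124472, 128759 and 124029.5 in the vehicle samples and 118037, 121018 and 118306 in the S1P samples. The S1P samples therefore lay below the vehicle samples without overlap. The 11 folding genes lay in the same order, with sums of 66565, 68449 and 66653 in vehicle and 58474, 63407 and 59747 after S1P. Most of the sum of the 35 genes came from Hspa5, Hsp90b1, Calr, Canx, Pdia3 and P4hb. The sums of these 6 genes overlapped, at 73641 to 76238 in vehicle and 68406 to 73983 after S1P. Most of the folding sum came from Hspa5, Hsp90b1, Calr and Canx, none of which passed both thresholds. The sums therefore say little about the less abundant genes. The sums of the ERAD genes overlapped between the groups (9907 to 10367 and 9569.6 to 11325), and so did those of the disulfide genes (27932 to 29256 and 28024 to 28419) and of the translocon genes (15475 to 16954 and 16270 to 16542). The 3 UPR genes summed to 3939 to 4063 in vehicle and to 3352 to 3671 after S1P, most of it Xbp1. In bulk RNA, fewer cells of a type and less RNA per cell cannot be told apart.

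Counts of different genes can be compared only per length, and as CPM per kilobase of annotated exon, with TMM-scaled library sizes, the 35 genes spanned a wide range in vehicle. Calr stood highest with 218 ± 8.1 (SD, n = 3), followed by Hspa5 with 196 ± 1.5, Pdia3 with 173 ± 3.9, Hsp90b1 with 146 ± 4.8, P4hb with 139 ± 12 and Canx with 120 ± 5.2. Hsp90b1 and P4hb overlapped between their samples. The next gene, Ssr3, stood at 82.8 ± 4.2, and most of the others lay between 4.54 (Dnajb9) and 47.8 (Sdf2l1). Ern1 with 0.719 ± 0.038 and Derl3 with 0.649 ± 0.097 were the lowest, and their samples overlapped. After S1P the level of P4hb was 179 ± 14 and that of Calr 179 ± 31. With the length of the main transcript alone, chosen as a measure after the data were seen, Calr stayed highest, but Hsp90b1 moved from rank 4 to 2 (316), Canx from 6 to 3 (239), Pdia3 from 3 to 4 (222), Hspa5 from 2 to 5 (219.6) and P4hb from 5 to 6 (176). Manf moved from rank 27 to 13 and Xbp1 from 13 to 8, so that the order depends on the length used.

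**Figure D2:**
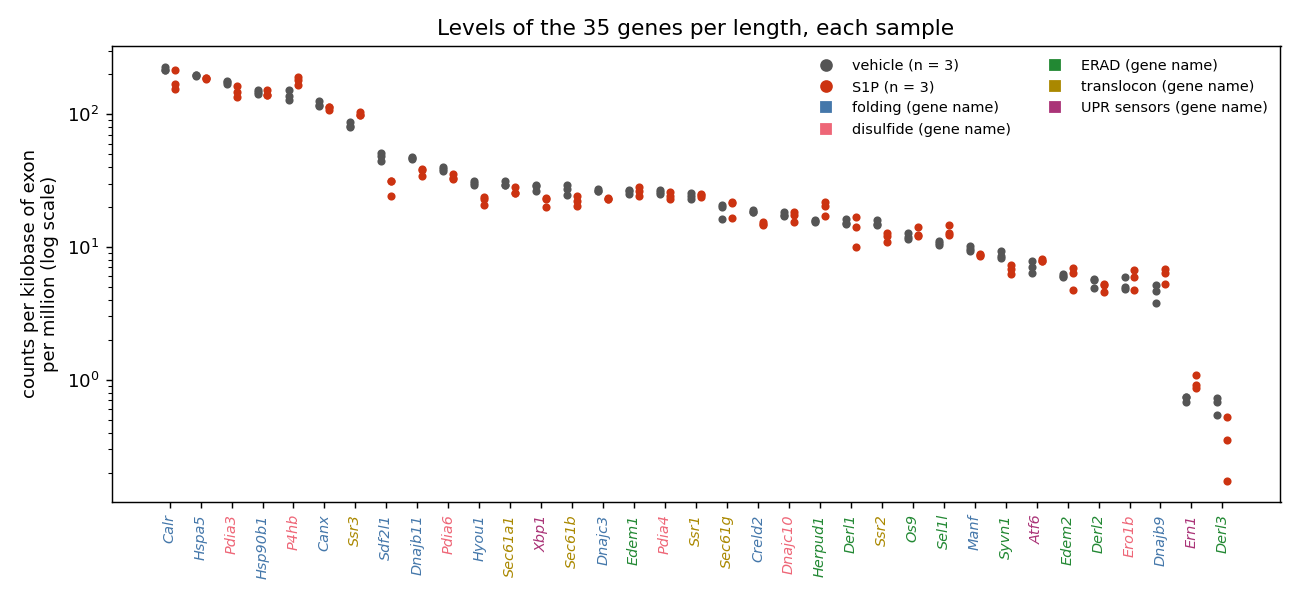
Level of each of the 35 genes in every sample, in CPM per kilobase of exon on a log scale, ordered by the vehicle mean and named in the colour of the class. Levels in vehicle run from 218 (Calr) to 0.649 (Derl3), and the spread of the S1P samples is widest in Derl3.

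The UPR acts on many of these genes through a short promoter sequence, the ER stress response element (ERSE), which is bound by ATF6 and XBP1 together with the CCAAT-binding factor NF-Y. Promoter windows of 300 bases (250 before and 50 from the RefSeq start, GRCm38.p6) were at hand for 29 of the 35 genes. On either strand, CCAAT followed after 9 bases by CCACG was found in 10 of these 29 (34.5%), in 39 of all 32851 windows (0.119%) and in 0.193% of the 9337 tested genes with a window. The 10 genes were Hspa5, Hsp90b1, Dnajc3, Creld2, Calr, Canx, Pdia6, Ero1b, Syvn1 and Derl3, and they were 10 of the 18 tested genes whose window held the element. The matches are shown because they differ between genes only in the 9 inner bases and in their place. They are written 5′ to 3′ in the direction of the element, with the CCAAT and CCACG parts in capitals.
Hspa5, bases -65 to -47 from the start: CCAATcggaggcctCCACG
Hsp90b1, -212 to -194: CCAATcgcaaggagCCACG
Hsp90b1, -107 to -89, opposite strand: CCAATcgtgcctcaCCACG
Dnajc3, -105 to -87: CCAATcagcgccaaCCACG
Creld2, -126 to -108, opposite strand: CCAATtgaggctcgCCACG
Calr, -162 to -144, opposite strand: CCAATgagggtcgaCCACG
Canx, -145 to -127: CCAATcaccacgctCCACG
Pdia6, -98 to -80: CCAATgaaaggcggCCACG
Ero1b, -201 to -183, opposite strand: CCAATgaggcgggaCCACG
Syvn1, -44 to -26: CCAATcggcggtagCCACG
Derl3, -156 to -138, opposite strand: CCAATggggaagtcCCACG
Dnajb11, 8 to 18, ERSE-II: ATTGGcCCACG
Herpud1, -52 to -42, ERSE-II: ATTGGgCCACG

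The last lines show ERSE-II, a shorter element of ATTGG, 1 base and CCACG, which stood in 2 of the 29 genes and in 0.0964% of the 9337 tested genes with a window (12 of all windows). The C/EBP-ATF site TGATGCAA, a sequence bound by ATF4 with C/EBP factors such as CHOP, was found in Herpud1 alone among the 29 genes and in 0.760% of the tested genes. The core of the unfolded protein response element, TGACGTGG, was found in 0 of the 29 genes and in 0.996% of the tested genes. CCACG by itself, which every ERSE and ERSE-II match contains, stood in 24 of the 29 genes (82.8%), in 52.4% of the tested genes and in 32.8% of all windows. A match is a string of letters in the window and no measurement of binding.

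Over the genes with an ERSE in the window, the log2 fold change had a median of -0.21, with 2 of 10 fallen (Creld2 and Syvn1), none risen and 9 of 10 below zero, so that the share that passed was near the 23.1% of all tested genes. Of the 8 other tested genes with an ERSE in the window, none passed both thresholds, 5 lay above zero and 3 below, and the median was 0.05. The 19 genes whose window held none had a median of 0.01, with 4 risen and 3 fallen. Whether the element has a part in this was not tested. Upstream sequences are given for Hspa5, which carries the element and missed the threshold, for Creld2 and Syvn1, which carry it and fell, and for Herpud1, which has ERSE-II and the C/EBP-ATF site and rose. Each is the 250 bases before the RefSeq start on the strand of the gene, with the element parts in capitals, and an element on the opposite strand appears as its reverse complement.
Hspa5, chr2:34771840-34772089, plus strand: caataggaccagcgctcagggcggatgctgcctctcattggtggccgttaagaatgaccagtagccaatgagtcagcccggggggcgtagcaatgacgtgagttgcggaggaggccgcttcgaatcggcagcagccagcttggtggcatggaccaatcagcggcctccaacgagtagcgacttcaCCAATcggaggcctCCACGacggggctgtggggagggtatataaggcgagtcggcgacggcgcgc
Creld2, chr15:88819396-88819645, plus strand: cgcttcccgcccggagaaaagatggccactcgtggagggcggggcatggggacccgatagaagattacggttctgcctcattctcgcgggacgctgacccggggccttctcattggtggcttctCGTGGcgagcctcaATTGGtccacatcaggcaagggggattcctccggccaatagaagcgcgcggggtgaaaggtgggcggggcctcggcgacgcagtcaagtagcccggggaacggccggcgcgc
Syvn1, chr19:6046326-6046575, plus strand: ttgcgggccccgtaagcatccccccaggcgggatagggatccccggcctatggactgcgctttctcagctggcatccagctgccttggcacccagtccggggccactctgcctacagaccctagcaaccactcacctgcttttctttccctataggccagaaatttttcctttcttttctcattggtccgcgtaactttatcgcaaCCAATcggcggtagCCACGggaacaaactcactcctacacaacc
Herpud1, chr8:94386179-94386428, plus strand: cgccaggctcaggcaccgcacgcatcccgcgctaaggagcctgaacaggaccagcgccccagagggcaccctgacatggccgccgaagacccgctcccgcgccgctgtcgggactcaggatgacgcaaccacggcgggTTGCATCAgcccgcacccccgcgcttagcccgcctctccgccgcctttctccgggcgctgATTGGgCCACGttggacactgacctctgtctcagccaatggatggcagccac

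**Figure D3:**
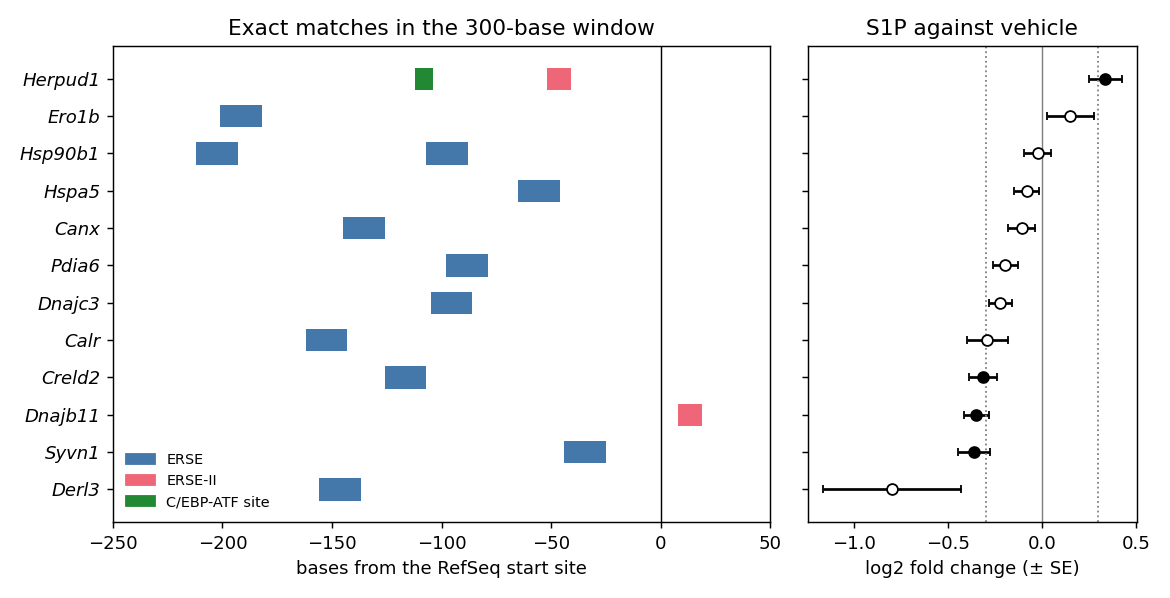
Position of each ERSE, ERSE-II and C/EBP-ATF match in bases from the RefSeq start (left) and the log2 fold change of the same gene with 1 standard error (right, filled where both thresholds were passed). Genes with an ERSE match run from -0.80 (Derl3) to 0.15 (Ero1b), and Herpud1 at the top has no ERSE but ERSE-II and the C/EBP-ATF site.

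Of the folding genes, 4 of 11 fell and 1 rose, with a median log2 fold change of -0.22 and groups that did not overlap in 9 of the 11, beside 23.1% of all tested genes past both thresholds and 45.6% without overlap. The genes that fell were Sdf2l1, Hyou1, Dnajb11 and Creld2, and Calr was close to the thresholds. Hspa5 encodes BiP, the ER member of the HSP70 family, which binds unfolded chains and holds the UPR sensors inactive. It had 15915, 16156 and 16035 normalized counts in the vehicle samples and 15364, 15185 and 14926 after S1P. The groups did not overlap, yet the log2 fold change was -0.08 (95% interval -0.21 to 0.05) with an adjusted p of 0.393. Of its exon bases, 44.2% lie under Rabepk on the opposite strand. Hsp90b1, the ER member of the HSP90 family (GRP94), had 13195, 13634 and 12767 normalized counts in vehicle and 12583, 13779 and 12601 after S1P. These overlapped, with a log2 fold change of -0.02 (-0.16 to 0.12) and an adjusted p of 0.836.

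Sdf2l1, a partner of BiP and of ERdj3 that keeps unfolded proteins from clumping, fell the most of the 35 genes. At chr16:16948002-16950252 (GRCm39), it had 788, 839 and 724 normalized counts in vehicle and 512, 398 and 510.3 after S1P. The lowest vehicle sample lay above the highest S1P sample by a wide margin. The log2 fold change was -0.72 ± 0.10 (SE), or 39.3% lower, with an edgeR adjusted p of 0.000542. Without S1P replicate 2, the lowest sample, it was -0.61. Hyou1, an HSP70-like protein that exchanges the nucleotide of BiP (chr9:44290418-44303666), had 3678, 3822 and 3588 normalized counts in vehicle and 2874, 2522 and 2799 after S1P. It fell by 0.44 ± 0.07 on the log2 scale, or 26.0%, with an adjusted p of 0.00109.

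Dnajb11 encodes ERdj3, a J-domain protein that brings unfolded chains to BiP (chr16:22676587-22698384). It had 2479.5, 2529.8 and 2578 normalized counts in vehicle and 1851, 2036 and 2073 after S1P. The fall of 21.5% had a log2 fold change of -0.35 ± 0.07 and an adjusted p of 0.00304. Creld2, an ER-resident protein that can also be secreted (chr15:88703795-88710890), had 596, 611 and 595 normalized counts in vehicle and 475, 477 and 496 after S1P. The samples of each group lay close together, and the log2 fold change of -0.31 ± 0.07 had an adjusted p of 0.00862. Sdf2l1, Hyou1, Dnajb11 and Creld2 passed both thresholds whichever of the 6 libraries was left out. With upper-quartile factors, Creld2 stood at -0.29, just under the threshold of 0.3.

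Dnajb9 was the folding gene that rose. It encodes ERdj4, a J-domain protein that also serves ERAD and returns IRE1 to its inactive state. At chr12:44252341-44257171, it had 319, 232 and 284 normalized counts in vehicle and 393, 420.4 and 321 after S1P. The highest vehicle sample and the lowest S1P sample were nearly level. The log2 fold change was 0.43 ± 0.13 with an adjusted p of 0.0287, and the adjusted p was 0.116 without vehicle replicate 2, 0.0809 without vehicle replicate 3 and 0.0585 without S1P replicate 1.

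Calr and Canx encode the lectin chaperones calreticulin and calnexin, which hold glycoproteins until they fold. Calr had 12026, 11994 and 12803 normalized counts in vehicle and 8621, 11998 and 9511 after S1P. S1P replicates 1 and 3 lay well below every vehicle sample and S1P replicate 2 lay among them. The log2 fold change was -0.29 ± 0.11 with an adjusted p of 0.0629, and without S1P replicate 2 it was -0.44 with an adjusted p of 0.000202. Calr was past both thresholds in 4 of 8 other settings: limma-voom (-0.30, adjusted p 0.0474), the replicate block (-0.30, 0.0391), total counts only (-0.32, 0.0214) and no filter on low counts (-0.33, 0.000345). Canx had 12988 to 14095 normalized counts in vehicle and 11969 to 12749 after S1P, with an adjusted p of 0.28. Dnajc3 (p58IPK), a J-domain partner of BiP, had a log2 fold change of -0.22 ± 0.06 and an adjusted p of 0.0189, which stayed below the threshold of change. Its S1P samples, at 2262 to 2309 normalized counts, were all below its vehicle samples at 2608 to 2722. Manf, an ER factor that binds BiP and is also secreted, had a log2 fold change of -0.16 and an adjusted p of 0.0804, and 32.6% of its exon bases lie under other genes of the same strand.

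**Figure D4:**
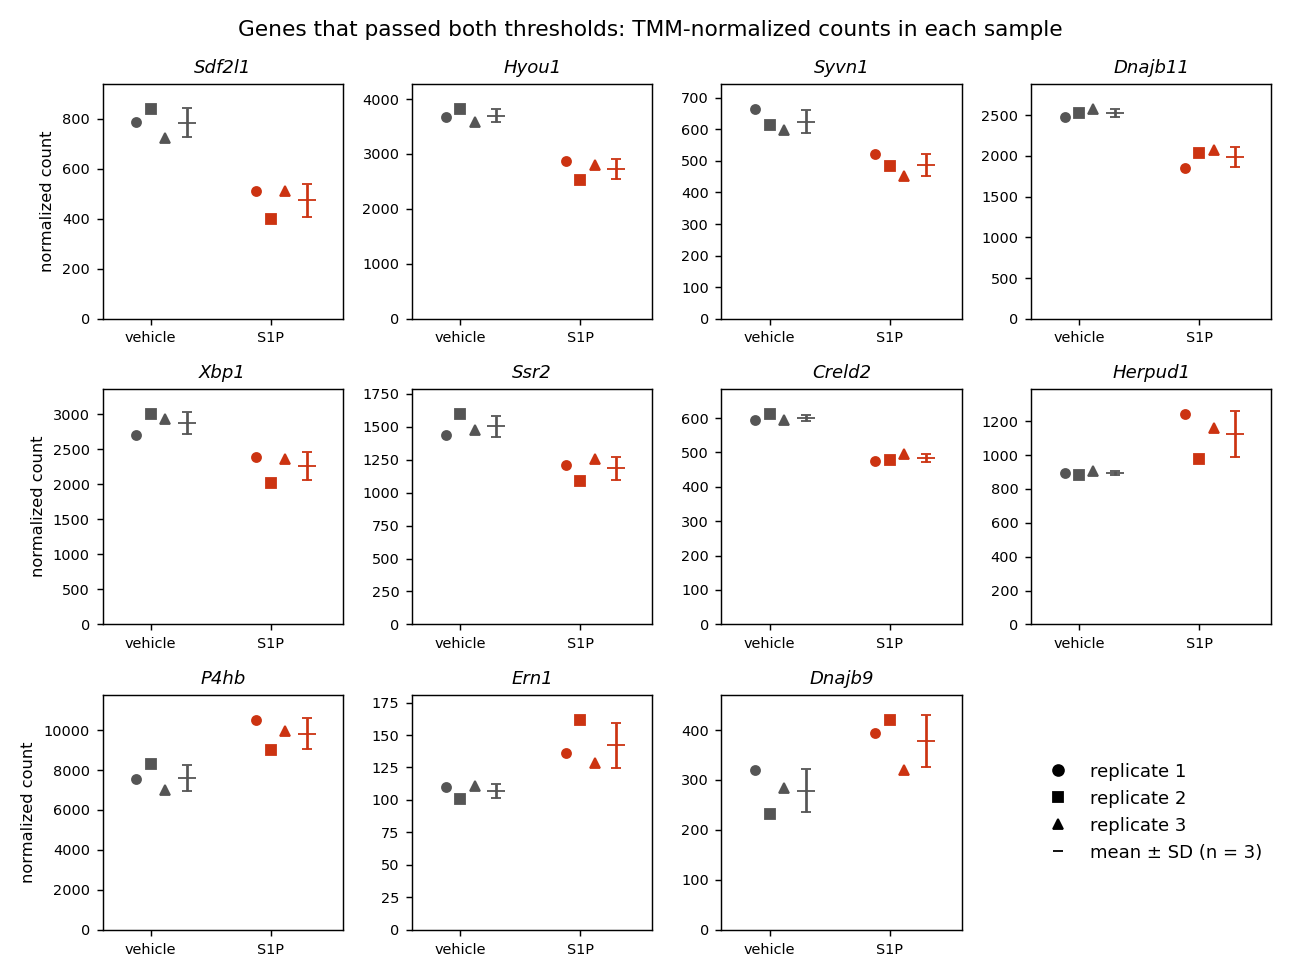
TMM-normalized counts in each sample for the 11 genes that passed both thresholds, on axes that start at 0, with the mean and SD of each group beside the points (n = 3). The groups do not overlap in any panel, and in Dnajb9 the nearest samples of the groups lie at 319 and 321.

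Of the 6 genes of disulfide bond formation, 1 rose (16.7%) and none fell, beside 12.7% risen and 10.4% fallen of all tested genes. The median log2 fold change was -0.07. P4hb encodes protein disulfide isomerase, which forms and rearranges disulfide bonds and is also a subunit of prolyl 4-hydroxylase. At chr11:120451122-120464538, it had 7568, 8293 and 7002 normalized counts in vehicle and 10512, 9009.5 and 9940.4 after S1P. Every S1P sample lay above every vehicle sample. P4hb rose by 28.9%, a log2 fold change of 0.37 ± 0.08 (interval 0.20 to 0.53), with an adjusted p of 0.00808. The adjusted p was 0.0551 without vehicle replicate 3, the lowest sample, and 21.2% of the exon bases lie under the opposite-strand gene Gm57341.

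The other isomerases of the list lay on the other side of zero. Pdia3, or ERp57, works with calnexin and calreticulin on glycoproteins and assists the loading of MHC class I. It had 11728, 12066 and 12270.0 normalized counts in vehicle and 9357, 11263 and 10128 after S1P. The groups did not overlap and the log2 fold change was -0.23 ± 0.08 with an adjusted p of 0.0493. Without S1P replicate 2, its highest S1P sample, the log2 fold change was -0.30 and the adjusted p 0.00175, past both thresholds. Of the exon bases of Pdia3, 26.5% lie under genes of the opposite strand. Pdia6 (P5), a protein disulfide isomerase that works beside BiP, had 3525 to 3782 normalized counts in vehicle and 3096 to 3344 after S1P. Its log2 fold change was -0.19 ± 0.07 and its adjusted p 0.0454. Pdia4 (ERp72) overlapped between the groups at -0.09 with an adjusted p of 0.36.

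Ero1b, an oxidase that passes electrons from protein disulfide isomerase to oxygen, had 656, 533 and 557 normalized counts in vehicle and 751, 523 and 659.6 after S1P. The groups overlapped, and the log2 fold change of 0.15 (-0.09 to 0.40) had an adjusted p of 0.391. Dnajc10 (ERdj5), a reductase that opens disulfide bonds of ERAD substrates, stood at -0.05 (-0.20 to 0.10) with an adjusted p of 0.69. Without S1P replicate 2 it stood at 0.02.

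Of the 9 ERAD genes, 1 rose and 1 fell (22.2%), near the 23.1% of all tested genes. The median log2 fold change was 0.00. Herpud1, a membrane protein that gathers the ubiquitin ligase complex of ERAD at the ER (chr8:95113022-95123141), had 894, 884 and 905 normalized counts in vehicle and 1241, 977 and 1162 after S1P. Its vehicle samples were nearly equal, and every S1P sample lay above them. Herpud1 rose by 26.2%, a log2 fold change of 0.34 ± 0.09, with an adjusted p of 0.0143. With any library but S1P replicate 2 left out it missed the thresholds, with an adjusted p of 0.0672 at most and, without S1P replicate 1, a log2 fold change of 0.26. Without S1P replicate 2, its lowest S1P sample, the log2 fold change was 0.43.

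Syvn1 encodes HRD1, the ubiquitin ligase at the centre of ERAD (chr19:6096606-6103747). It had 664, 612 and 596 normalized counts in vehicle and 521, 485 and 451 after S1P. The groups were apart, and Syvn1 fell by 22.1%, a log2 fold change of -0.36 ± 0.08 with an adjusted p of 0.00886. The adjusted p was 0.0521 without vehicle replicate 1, and 17.5% of the exon bases lie under genes of the opposite strand. Sel1l, the adaptor that holds HRD1 in its complex, went the other way with 1486, 1434 and 1390.2 normalized counts in vehicle and 1946, 1710.1 and 1631 after S1P. Its log2 fold change of 0.296 lay just below the threshold of 0.3, with an adjusted p of 0.0145, and without S1P replicate 2 it was 0.32. Syvn1 and Sel1l thus lay on opposite sides of zero, each with groups that did not overlap.

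The derlins form part of the channel through which ERAD substrates leave the ER. Derl1 had 1318, 1216 and 1203 normalized counts in vehicle and 1362, 801 and 1136 after S1P. S1P replicate 2 was the low sample, and the log2 fold change of -0.17 (adjusted p 0.399) became 0.01 without it. Without S1P replicate 1, the highest S1P sample, it was -0.36 with an adjusted p of 0.0400, past both thresholds. Derl2 had a log2 fold change of -0.12 and an adjusted p of 0.347. Derl3 was the rarest transcript of the list, with 20.4, 21.6 and 16.1 normalized counts in vehicle and 15.8, 5.17 and 10.4 after S1P. The log2 fold change of -0.80 had a standard error of 0.37 and an adjusted p of 0.125. It was -1.27 with an adjusted p of 0.0448 without S1P replicate 1, past both thresholds, and -0.52 without S1P replicate 2.

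Edem1 and Edem2 encode mannosidase-like proteins that mark glycoproteins for ERAD, and Os9 is a lectin that receives them. Edem1 had 3502 to 3736 normalized counts in vehicle and 3353 to 3931 after S1P, with a log2 fold change of 0.01 (-0.13 to 0.16). Edem2 had 434 to 453 and 345 to 506, with a log2 fold change of 0.00 (-0.23 to 0.24). Os9 stood at 0.10 (-0.06 to 0.25) with an adjusted p of 0.394. In all 3 genes the groups overlapped.

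Of the 6 translocon genes, 1 fell (16.7%) and none rose, beside 10.4% fallen and 12.7% risen of all tested genes. Their median log2 fold change was -0.09. Sec61a1, Sec61b and Sec61g encode the subunits of the SEC61 channel. Sec61a1, the pore, had 2915, 3122 and 2896 normalized counts in vehicle and 2787, 2533 and 2538 after S1P. The groups did not overlap, with a log2 fold change of -0.18 ± 0.07 and an adjusted p of 0.0646. Sec61b had 701, 841 and 785 in vehicle and 639, 579.5 and 698 after S1P, a log2 fold change of -0.28 ± 0.09 and an adjusted p of 0.0435. Its highest S1P sample was close to its lowest vehicle sample, and 11.2% of its 31-base words recur in other genes, most often in Sec61bl. Sec61g overlapped between the groups at 0.07 with an adjusted p of 0.711, and 14.1% of its words recur elsewhere.

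Ssr1, Ssr2 and Ssr3 encode the alpha, beta and gamma subunits of the translocon-associated protein complex, which helps some chains into the channel. Of these, Ssr2 alone passed both thresholds. Ssr2 (chr3:88483056-88497417) had 1441, 1595 and 1473 normalized counts in vehicle and 1210.1, 1087 and 1259 after S1P. It fell by 21.0%, a log2 fold change of -0.34 ± 0.08 with an adjusted p of 0.00654, and without S1P replicate 2 the change of -0.28 (adjusted p 0.00465) fell short of the threshold. Of its exon bases, 19.7% lie under genes of the opposite strand. Ssr3 had 5228, 5608 and 5089.8 in vehicle and 6653, 6362 and 6264 after S1P, all S1P samples above all vehicle samples. Its log2 fold change of 0.28 ± 0.07 had an adjusted p of 0.0113 and stayed below the threshold of change. Ssr1 stood at 0.01 (-0.12 to 0.15) with an adjusted p of 0.911.

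Of the 3 UPR genes, Xbp1 fell, Ern1 rose and Atf6 did not reach the threshold, and the groups did not overlap in any of them, as in 45.6% of all tested genes, of which 23.1% passed both thresholds. Xbp1 encodes the transcription factor made once IRE1 has spliced its mRNA (chr11:5470606-5483027). It had 2706, 3001 and 2939 normalized counts in vehicle and 2398, 2027 and 2364 after S1P. The lowest vehicle sample lay above the highest S1P sample, and the fall of 21.4% had a log2 fold change of -0.35 ± 0.08 and an adjusted p of 0.00753. Without S1P replicate 2 the log2 fold change was -0.27 with an adjusted p of 0.00398, short of the threshold of change. Counts per gene do not separate spliced from unspliced Xbp1 mRNA, and 22.0% of the exon bases lie under Ccdc117 on the opposite strand.

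Ern1 encodes IRE1 itself, the kinase and endoribonuclease that splices Xbp1 (chr11:106283818-106378686). It was a low transcript, with 109.6, 101 and 111 normalized counts in vehicle and 136, 162 and 128 after S1P. Every S1P sample lay above every vehicle sample, and the log2 fold change was 0.40 ± 0.14 with an adjusted p of 0.0469. The call was lost whichever library was left out, with an adjusted p between 0.056 and 0.136, and DESeq2 gave 0.0913. Atf6, the sensor that is cleaved in the Golgi and enters the nucleus, had 1124, 914 and 1014 normalized counts in vehicle and 1137, 1163 and 1132 after S1P. Its S1P samples lay close together just above the highest vehicle sample. The log2 fold change was 0.17 (0.01 to 0.33) with an adjusted p of 0.144. That interval lies above zero, but the edgeR p before adjustment was 0.0617, so the interval is narrower than the test allows.

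Other genes of the same processes, taken from a list of 124 of which 116 were tested, are given for comparison. Of the 116, 10 rose and 11 fell (18.1%), beside 23.1% of all tested genes. In this list 71 genes lay below zero and 45 above, and the median log2 fold change was -0.05. Their groups did not overlap in 33 genes that were lower and 24 that were higher (49.1%), beside 45.6% of all tested genes. The counts were 10 risen and 10 fallen without S1P replicate 2. The 22 other folding genes had 1 risen and 3 fallen. Those that fell were Mogs, which trims the first glucose from N-glycans (-0.63), Mydgf, an ER-resident and secreted factor (-0.50), and Mesd, a chaperone of LDL receptor family proteins (-0.32). Crebrf rose by 0.60 on the log2 scale and is known as a regulator of CREB3 rather than a chaperone. Of 30 other ERAD genes, 2 rose, the lectin Erlec1 (0.42) and the HRD1 cofactor Fam8a1 (0.41). The 4 that fell were the ubiquitin ligase Rnf145 (-0.41), the conjugating enzyme Ube2g2 (-0.38), and Vcp (-0.33) and Nploc4 (-0.44), which pull substrates from the membrane. Of 30 other genes of translocation and glycosylation, Rpn1, a subunit of the oligosaccharyltransferase, fell (-0.34) and none rose.

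The other disulfide genes held the widest change. Ero1a, the paralog of Ero1b, had 3044, 3416 and 2392 normalized counts in vehicle and 9460.0, 7808 and 7743 after S1P. It rose by 1.50 ± 0.12 on the log2 scale with an adjusted p of 2.23e-05, where Ero1b stood at 0.15. Txndc16 (0.34) and Tmx4 (0.32), thioredoxin-like proteins of the ER, also rose, and Vkorc1l1 (-0.38), a reductase of vitamin K epoxide, fell. The other 13 of 17 tested genes did not pass, so that 23.5% of this class passed, beside 23.1% of all tested genes.

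Among 17 further UPR regulators, 4 rose and 2 fell (35.3%), beside 23.1% of all tested genes. Ddit3, which encodes CHOP, had 178, 129.7 and 149.7 normalized counts in vehicle and 329, 308 and 269.6 after S1P. The log2 fold change was 0.98 ± 0.13 with an adjusted p of 0.000337. Ppp1r15a, the phosphatase subunit GADD34 that restores translation after PERK, rose by 1.07. The ER membrane-bound factors Creb3l1 (1.09) and Creb3l2 (0.80) rose as well, the first from only 11.9 to 14.2 normalized counts in vehicle. Atf6b, the paralog of Atf6, fell (-0.57), and so did Nfyc, a subunit of NF-Y (-0.39). Eif2ak3, which encodes PERK, stood at 0.12 with an adjusted p of 0.383, and Atf4 at 0.24 with an adjusted p of 0.022, below the threshold of change.

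**Figure D5:**
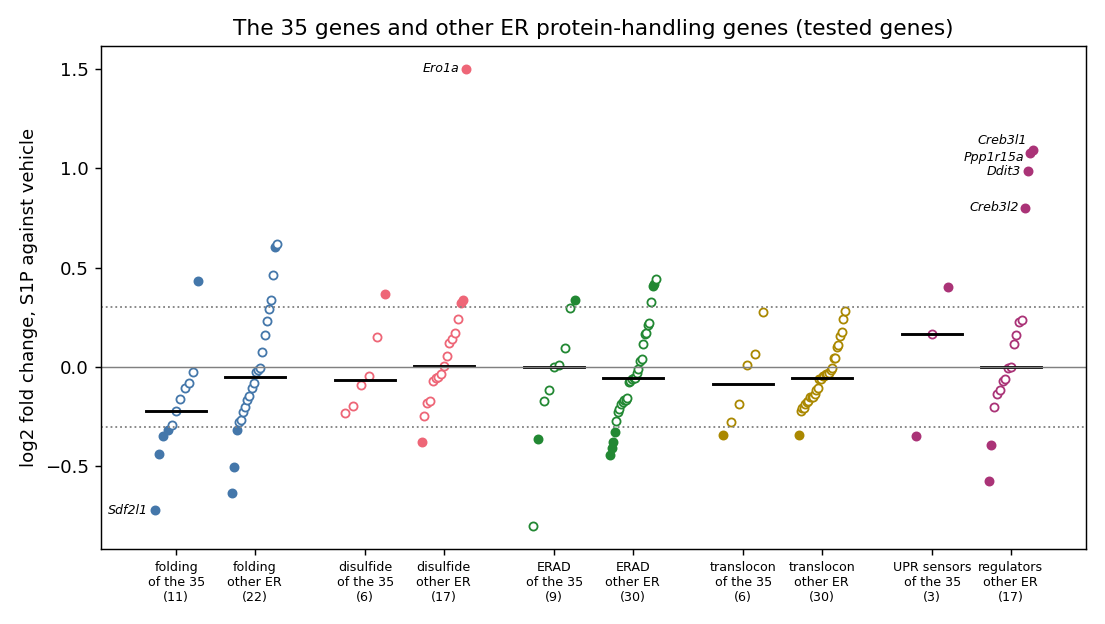
Log2 fold change of each of the 35 genes and of the 116 other tested ER genes by class, with the number of genes below each column, the median as a bar and filled points for genes past both thresholds (dotted lines at 0.3). The named points Ero1a (1.50), Creb3l1 (1.09), Ppp1r15a (1.07), Ddit3 (0.98) and Creb3l2 (0.80) lie above all of the 35 genes, whose highest value is 0.43 (Dnajb9).

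Plasma cells and B cells are rich in many of these transcripts, and their markers were measured in the same samples. The 11 B cell markers summed to 20073 to 24500 normalized counts in vehicle and 20891 to 24078 after S1P, which overlapped, and 3 of the 11 passed the thresholds, Ms4a1 (-0.39) and Cd22 (-0.44) lower and Ebf1 (0.60) higher. Cd79a (edgeR adjusted p 0.364) did not. Of the 6 plasma cell markers, whose sum was 338 to 419 in vehicle and 419 to 470.3 after S1P, Jchain had 6.94 to 14.2 and Sdc1 15 to 35.7 normalized counts over all 6 samples. Tnfrsf17 had 1 count in 1 vehicle sample and 0 in the other 5 libraries, and Ighg1 rose (0.44). The call of Ighg1 was lost without vehicle replicate 2, vehicle replicate 3 or S1P replicate 1, with an edgeR adjusted p of 0.0928 at most, that of Ms4a1 without vehicle replicate 1 or 3, and that of the CD4 T cell marker Cd40lg without vehicle replicate 2 or S1P replicate 3. The sum of the 6 myeloid markers was 21.6 to 34.9 over all samples, and Csf1r had at most 5 counts. Cd8a fell by 0.67 and Cd8b1 by 0.55 on the log2 scale, while the 4 CD4 T cell markers summed to 3379.6 to 4012 in vehicle and 3709.8 to 4706 after S1P, with Zbtb7b (0.37) and Cd40lg (0.50) higher. The 9 CD8 T cell markers summed to 52925 to 64324 in vehicle and 50893 to 53386 after S1P. Most of this sum was Gzmb, with means of 33182 in vehicle and 30872 after S1P, so it says little about Cd8a and Cd8b1. The 4 NK cell markers summed to 936 to 1009.8 in vehicle and 474 to 657 after S1P, nearly all of it Eomes, a gene that CD8 T cells also express. The 4 erythroid markers summed to 3.9 to 15.0 over all samples. The part of such shifts in the results for the 35 genes was not tested.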

How the data were processed

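The samples, groups and cultures are described above. Per the labels and the methods of the study, strand-specific libraries of polyadenylated RNA were sequenced as read pairs, trimmed with Trim Galore, aligned with STAR to GRCm39 and assigned to genes by featureCounts. The authors deposited whole-number counts for each Ensembl gene, which had not been normalized. Which annotation release and strand setting were used, and how reads matching several genes were treated, is not given in the sources used here. All 6 count columns were used. Gene symbols, positions and exon lengths came from GENCODE M39, which holds 56323 of the 56941 identifiers.

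Counts were tested with edgeR 4.0.16 (R 4.3.3): filterByExpr, TMM factors, a quasi-likelihood fit on treatment, and p-values adjusted by Benjamini and Hochberg across the 13299 genes tested. The call rule required both an adjusted p up to 0.05 and a change of 0.3 or more, up or down, on the log2 scale. Normalized counts are counts scaled to the mean TMM library size. Intervals are 1.96 standard errors either way, which treats the estimates as normal. With so few samples they are narrower than 95% intervals of the quasi-likelihood test would be. Medians, sums, levels and motif shares are descriptions without a test. DESeq2 1.42.0, limma-voom (limma 3.58.1), other factors, filters and thresholds, a replicate block and the fit without each library were alternatives.

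The edgeR fit was tested on data simulated from this comparison (13299 genes). It recovered 84 of 100 genes made to differ by 1 on the log2 scale and 56 of 100 made to differ by 0.5. It also called 11 genes that had not been made to differ. Apart from the added changes, all simulated samples shared the mean of each gene. The simulation thus held no library that stood apart as S1P replicate 2 did.

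The 35 genes, the other ER genes and the markers were chosen with earlier results of these data known. The text names all 35, the called other ER genes with up to 4 risen and 4 fallen in each class, Ero1a, Eif2ak3, Atf4 and Ddit3, and markers mainly by list totals. For Ddit3, 2 overlapping gene identifiers carry the symbol and the longer was used. Markers of T, B, plasma, myeloid, NK and erythroid cells were read from the same table. Promoters came from RefSeq (GRCm38.p6) and were not mixed with GRCm39 positions. Protein sequences were not used here.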

Additional observations from a re-analysis of the deposited data

How the results depend on the processing

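The counts of genes that passed both thresholds moved most with the threshold itself. With a log2 fold change of at least 1, 383 genes rose and 82 fell over all tested genes, 0 of the 35 genes in either direction and 0 in each of the 5 classes, and 3 of the other ER genes rose and 0 fell. With the adjusted p alone, 11 of the 35 genes were lower, and the disulfide and the translocon class had 3 genes each. With total counts only or without a filter on low counts, 2 translocon genes and 1 UPR gene passed, and the median of the 35 genes was -0.14. Without the filter the median over all genes was 0.16. DESeq2 and limma-voom each left 1 UPR gene, because Ern1 was lost. Of the 35, upper-quartile factors gave 5 higher and 6 lower, total counts only and no filter each 3 higher and 9 lower, limma-voom 3 and 8, and DESeq2 3 and 7. Of all genes called, 54.9% were higher, 49.8% with total counts only and 60.4% with upper-quartile factors.

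Values near zero changed sign. Edem1 was -0.012 with total counts only and -0.015 without a filter. Edem2 was -0.0019 with RLE factors, -0.020 with total counts only, -0.0051 with DESeq2, -0.0047 with limma-voom and -0.023 without a filter. Ssr1 was -0.016 with total counts only and -0.018 without a filter. No cause of these shifts was tested.

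The counts could not settle whether the replicate numbers pair the samples. Deviations of same-numbered samples from their group means correlated at 0.12, -0.0060 and 0.048, and those of samples with different numbers at -0.10 to 0.050. The value of 0.12, for replicate 1 of both groups, was the highest of all. Vehicle replicate 2 correlated best with S1P replicate 3, and vehicle replicate 3 about equally with S1P replicates 2 and 3. Correlations this weak cannot exclude that same-numbered samples share a source. With the replicate block, 3 of the 35 genes rose and 8 fell, 1 UPR gene passed, Edem2 was -0.012, and 1697 and 1423 of all genes passed.

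Leaving out each library in turn gave 1158 to 1736 higher and 961 to 1492 lower genes over all tested genes. Of the 35 genes, 0 to 4 were higher, with 0 without vehicle replicate 3, 1 without S1P replicate 1 and 2 without vehicle replicate 2, and 7 to 9 were lower. By class, 4 to 6 folding, 0 to 2 disulfide, 1 to 3 ERAD, 0 to 2 translocon and 0 to 1 UPR genes passed. The class medians of the UPR genes ran from 0.093 to 0.24 and the median of the 35 genes from -0.13 to -0.080. Among single genes, the log2 fold change ran from -0.11 to 0.023 for Dnajc10, from -0.36 to 0.0098 for Derl1, from -0.042 to 0.074 for Edem1, from -0.12 to 0.14 for Edem2, from -0.035 to 0.19 for Sec61g and from -0.029 to 0.048 for Ssr1. Of the 11 genes that passed, 4 passed in all 6 of these fits. With 3 samples a group, changes of low transcripts such as Derl3 and Ern1 have standard errors of 0.37 and 0.14.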
